A study of Mus musculus with 24 samples.

Results

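Fate factors of GABAergic neurons outside the telencephalon were followed here, 7 genes of the 54446 counted in each library. They were chosen by name: the zinc finger factors *Gata2* and *Gata3*, the bHLH factors *Tal1* and *Tal2*, the bHLH-Orange factor *Helt*, the SoxB2 factor *Sox14* and the GATA cofactor *Zfpm2*. All 7 matched an identifier. Stranded polyA RNA-seq libraries had been made from E14.5 mouse embryos, from the SP (secondary prosencephalon, the forebrain piece) and from the DMH, 1 piece that holds diencephalon, midbrain and hindbrain. The 24 libraries came from 12 embryos in 8 conditions: female or male, *Tfap2b*+/+ littermate control or *Tfap2b*-/- mutant, SP or DMH, with 3 embryos for each sex and genotype. The parents were heterozygous for a constitutive allele in which a PGK-neo cassette disrupts an exon of *Tfap2b*, the gene of the transcription factor AP-2β, so every cell of a mutant embryo carries the allele. Female mutant 3 was left out of the tests, and its values are given beside them.

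In the dorsal midbrain and the rostral thalamus, dividing precursors pass through a short window in which a small set of transcription factors decides between a GABAergic and a glutamatergic fate. *Helt* acts in the precursors of the midbrain, *Gata2* acts as they leave the cell cycle, and *Tal2*, *Tal1* and *Gata3* act in the young neurons, with *Sox14* marking GABAergic neurons of the rostral thalamus and pretectum. GATA and TAL proteins can bind DNA in 1 complex with LIM-domain-only and LDB proteins, and the same genes also serve blood and vessel cells. FOG proteins, of which *Zfpm2* encodes FOG2, bind GATA factors and modify their activity.

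Libraries held 24.7 to 66.8 M fragments on genes, and levels are in CPM, counts scaled to library size and by TMM over all 24. The floor of 3 counts lay between 0.0449 and 0.121 CPM before TMM scaling and covers counting error only. *Tfap2b* itself was at 281 to 435 CPM in DMH controls and 50.4 to 56.6 CPM in DMH mutants, and the genotypes overlapped in SP at 3.48 to 4.19 and 2.75 to 4.72 CPM, so that it checks the labels in DMH alone. The tissue labels held: the sum of 10 telencephalic markers was 2441 to 3734 CPM in SP and 325 to 526 CPM in DMH. Some libraries stood apart. The DMH library of female mutant 3 had 736 CPM summed over 7 skeletal muscle genes against 5.59 to 8.13 CPM in the other 11, and 3293 CPM of meningeal and mesenchymal genes against 744 to 1271 CPM. The DMH libraries of female control 1, female mutants 1 and 2 and male mutant 2 had 0.0378 to 11.5 CPM summed over 15 caudal *Hox* genes, while the other 8 had 342 to 530 CPM, and these 4 are called *Hox*-poor. The SP libraries of male control 1 and female mutant 3 had higher levels of some diencephalic genes than the other 10, described with *Sox14*. Both libraries of female control 2 contained Y-linked transcripts, and its label was kept.

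The genes lie on GRCm38 as follows, all on different chromosomes but for both TAL genes. *Gata2* (ENSMUSG00000015053.14) spans chr6:88193891-88207032 on the forward strand and *Gata3* (ENSMUSG00000015619.10) chr2:9857078-9890034 on the reverse strand. *Tal1* (ENSMUSG00000028717.12) spans chr4:115056426-115071755 and *Tal2* (ENSMUSG00000028417.3) chr4:53779705-53788712, both on the forward strand. *Helt* (ENSMUSG00000047171.8) spans chr8:46292039-46294671 and *Sox14* (ENSMUSG00000053747.9) chr9:99874106-99876170, both on the reverse strand, and *Zfpm2* (ENSMUSG00000022306.9) chr15:40655035-41104592 on the forward strand. *Gata3* and *Zfpm2* share exonic or intronic sequence with noncoding genes annotated on their own strand, and fragments that hit exons of both genes of such a pair are not counted.

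RefSeq promoters (GRCm38.p6, 250 bases before to 50 after a start) were at hand for 6 members, 8 promoters in all, but not for *Zfpm2*. They were searched on both strands for GCCNNNGGC (a palindromic AP-2 site), for a GATA site written AGATAA or, in its other form, TGATAA, and for an E-box of TAL proteins, CAGATG. The AP-2 letters occurred in 3 of the 8, against 16.6% of all 32851 promoters, the GATA letters in 1 of the 8 against 18.6%, and the E-box in 1 of the 8 against 17.2%. The AP-2 letters are rich in G and C, and the promoters of *Gata3*, *Helt* and *Gata2* that held them had 70%, 63.6% and 74% GC. The median over all promoters was 52.7% GC, and shares among promoters of like GC were not computed. The 4 promoters with a match upstream of the start are shown, since the gene disrupted in the mutants encodes an AP-2 factor and the members encode GATA and TAL factors. Each is the 250 bases before the start, 5′ to 3′ on the gene's strand, with matches in capitals.
Gata3, chr2:9878601-9878850, reverse strand, a start inside the annotated gene, 3 AP-2 matches: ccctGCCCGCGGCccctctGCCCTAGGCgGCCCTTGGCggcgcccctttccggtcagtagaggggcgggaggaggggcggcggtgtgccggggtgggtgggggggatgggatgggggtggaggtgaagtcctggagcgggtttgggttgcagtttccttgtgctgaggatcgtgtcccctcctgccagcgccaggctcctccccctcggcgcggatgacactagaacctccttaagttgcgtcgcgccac
Helt, chr8:46294672-46294921, reverse strand, 1 AP-2 match: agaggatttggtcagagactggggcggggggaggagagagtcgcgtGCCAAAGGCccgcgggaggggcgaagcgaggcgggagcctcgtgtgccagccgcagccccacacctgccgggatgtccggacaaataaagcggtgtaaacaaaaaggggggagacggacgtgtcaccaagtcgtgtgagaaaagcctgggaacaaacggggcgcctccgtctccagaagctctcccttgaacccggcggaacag
Gata2, chr6:88198414-88198663, forward strand, the start nearer the coding sequence, 1 AP-2 match: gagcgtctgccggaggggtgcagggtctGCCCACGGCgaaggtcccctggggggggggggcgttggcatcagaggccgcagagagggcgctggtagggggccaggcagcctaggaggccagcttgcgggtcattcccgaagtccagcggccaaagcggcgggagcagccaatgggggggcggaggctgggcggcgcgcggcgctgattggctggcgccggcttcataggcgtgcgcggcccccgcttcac
Tal1, chr4:115056176-115056425, forward strand, the distal start, 1 GATA match: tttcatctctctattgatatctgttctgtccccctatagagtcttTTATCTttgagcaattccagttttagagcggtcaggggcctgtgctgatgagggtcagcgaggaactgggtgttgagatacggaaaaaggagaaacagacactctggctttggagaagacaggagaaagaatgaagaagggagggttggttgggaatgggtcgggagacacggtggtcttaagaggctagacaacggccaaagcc
The E-box match of *Tal1* begins 10 bases past the first base of the transcript and is not in the stretch shown. The promoter of *Gata3* held 3 AP-2 matches in its 5′ end, while those of *Tal2* and *Sox14*, the other upstream *Gata2* start and the other *Tal1* start held none of these letters. A match of letters is no measure of binding.

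*Gata3*, *Sox14*, *Tal2*, *Tal1* and *Gata2* were far higher in DMH than in SP, in controls and in mutants. *Zfpm2* was higher by less than the fold threshold, and *Helt* was at similar low levels in both pieces. The question of this comparison is where along the brain the factors are transcribed, with SP and DMH of the same embryo paired. Genes were called at an adjusted p (edgeR quasi-likelihood test, Benjamini-Hochberg) under 0.05 with a log2 fold change beyond 1 in either direction. By this rule 11.1% of 17943 genes were called higher in control DMH and 9.96% of 17613 genes in mutant DMH, and 5 of the 7 members were called in each. In bulk tissue, fewer cells of a type and less RNA per cell cannot be told apart.

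**Figure D1:**
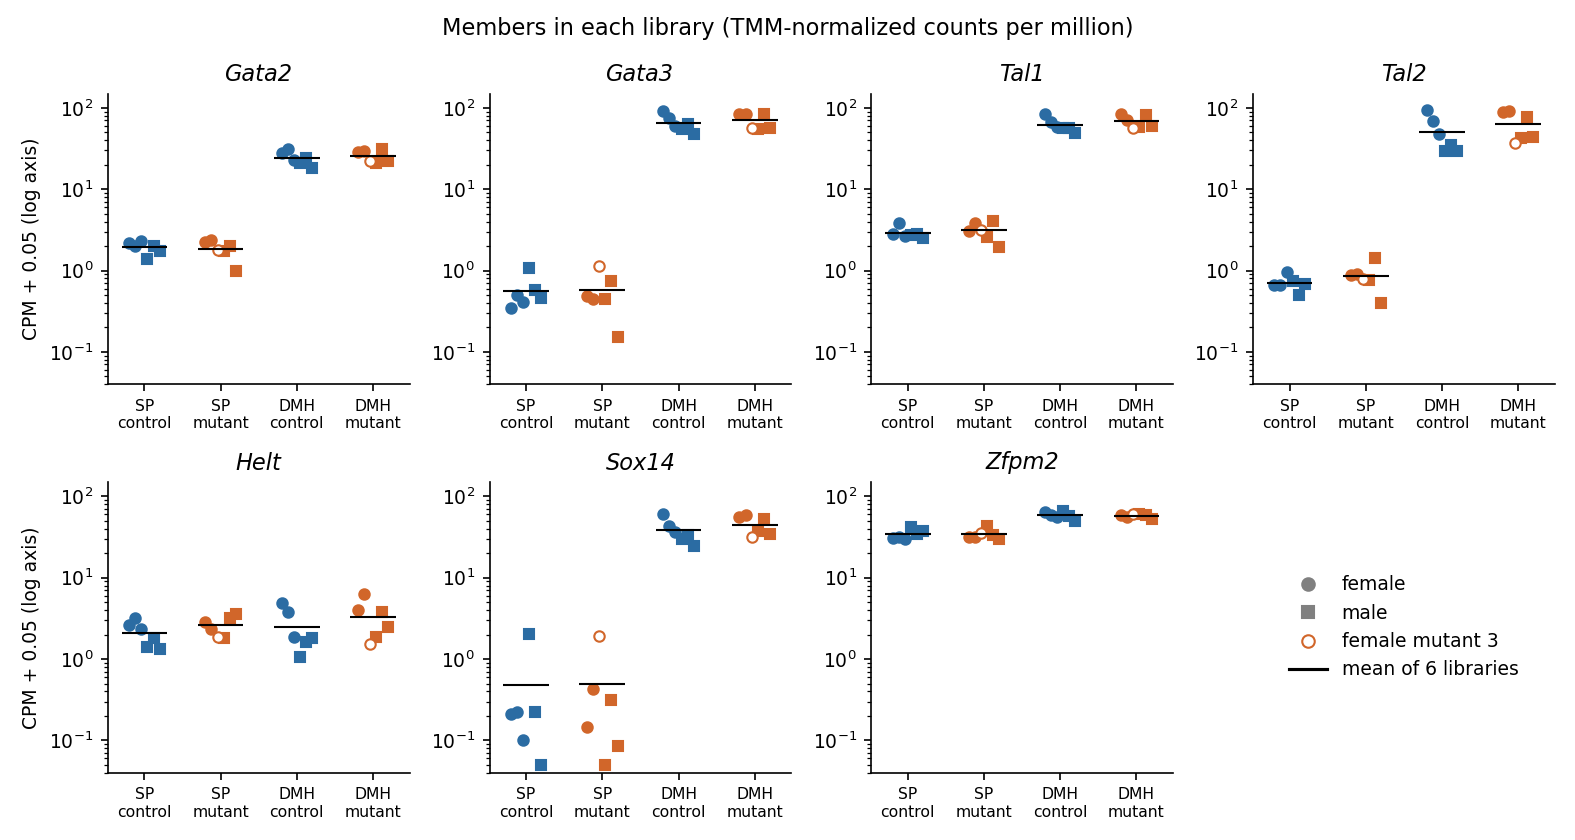
CPM plus 0.05 of each member on a log axis in SP and DMH of controls and mutants. Each point is 1 library (6 per column, circles female, squares male, open circle female mutant 3) and each bar the mean of 6. Gata2, Gata3, Tal1, Tal2, Sox14 and Zfpm2 were higher in all 12 DMH libraries than in any SP library, and Helt overlapped throughout.

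*Gata2*, the selector that starts the GABAergic programme as precursors leave the cycle, was at 18.2 CPM in the lowest DMH control, 23.4 CPM in the median and 30.9 CPM in the highest, and at 20.9, 25.4 and 31.3 CPM in the 6 DMH mutants. In SP the same order of values was 1.32, 1.97 and 2.27 CPM in controls and 0.941, 1.83 and 2.30 CPM in mutants. No SP library came near a DMH library. DMH exceeded SP by 3.64 on the log2 scale (SE 0.0936, adjusted p = 4.61e-11 by edgeR) in controls and 3.84 (SE 0.15, adjusted p = 5.51e-07 by edgeR) in mutants.

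*Gata3*, which follows *Gata2* in the young neurons, had the largest log2 fold change of the members in controls, and *Sox14* the largest without male control 1 (8.51 against 7.31). Its lowest, median and highest levels were 47.0, 61.2 and 90.8 CPM in DMH controls and 55.6, 70.4 and 84.8 CPM in DMH mutants. In SP they were 0.295, 0.425 and 1.02 CPM in controls and 0.105, 0.422 and 1.09 CPM in mutants, or 9 to 37 and 3 to 43 counts. On the log2 scale *Gata3* was higher in DMH by 6.93 (SE 0.20, adjusted p = 1.23e-08 by edgeR) in controls and 7.43 (SE 0.19, adjusted p = 9.22e-08 by edgeR) in mutants. A total of 67 of the 17943 genes tested had a larger fold in controls.

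The TAL genes, partners of the GATA factors in the same complexes, split by how much remained in SP. *Tal1* was at 48.5, 57.6 and 83.0 CPM (lowest, median, highest) in DMH controls and 55.9, 65.3 and 83.4 CPM in DMH mutants, against 2.47, 2.74 and 3.75 CPM and 1.92, 3.03 and 4.06 CPM in SP. *Tal2*, needed for GABAergic neurons of the dorsal midbrain, was at 29.3, 41.6 and 93.5 CPM in DMH controls and 37.3, 60.7 and 91.3 CPM in DMH mutants. In SP *Tal2* was at 0.455 to 0.920 CPM in controls and 0.348 to 1.38 CPM in mutants. Neither gene overlapped between the pieces, and *Tal2* spanned the wider range within DMH. The log2 fold changes of *Tal1* were 4.41 (SE 0.0834) in controls and 4.50 (SE 0.12) in mutants, and those of *Tal2* 6.14 (SE 0.19) and 6.35 (SE 0.19), with edgeR adjusted p of 1.48e-07 or less in all 4 tests.

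*Sox14*, a marker and regulator of rostral thalamic and pretectal GABAergic neurons, was at 24.6, 35.1 and 61.1 CPM (lowest, median, highest) in DMH controls and 31.3, 45.1 and 59.1 CPM in DMH mutants. In SP, 10 libraries held 0 to 0.379 CPM, or 0 to 16 counts. The libraries of male control 3 and male mutant 1 had no count, which allows up to 0.0764 and 0.112 CPM before TMM scaling. Male control 1 and female mutant 3 stood apart at 1.98 and 1.85 CPM, still under every DMH library.

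The same 2 SP libraries were the highest for some other regional genes, 4 of the 19 listed (*Nkx2-2*, *Lhx1*, *Pax7* and *Foxp2*), and not for the rest, such as *Otx2*, *Lhx5* and *Six3*. *Nkx2-2*, a homeobox gene of ventral and rostral thalamic precursors, was at 4.26 CPM in male control 1 and 4.79 CPM in female mutant 3, against 0.203 to 0.664 CPM in the other 10. *Lhx1*, a LIM homeobox gene, was at 15.4 and 17.7 CPM against 5.46 to 8.81 CPM. *Gata3* was at 1.02 and 1.09 CPM against 0.105 to 0.703 CPM. *Gata2*, *Tal1*, *Tal2* and *Helt* of these 2 libraries lay within the range of the other 10. The part of these genes in the SP values was not tested.

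**Figure D2:**
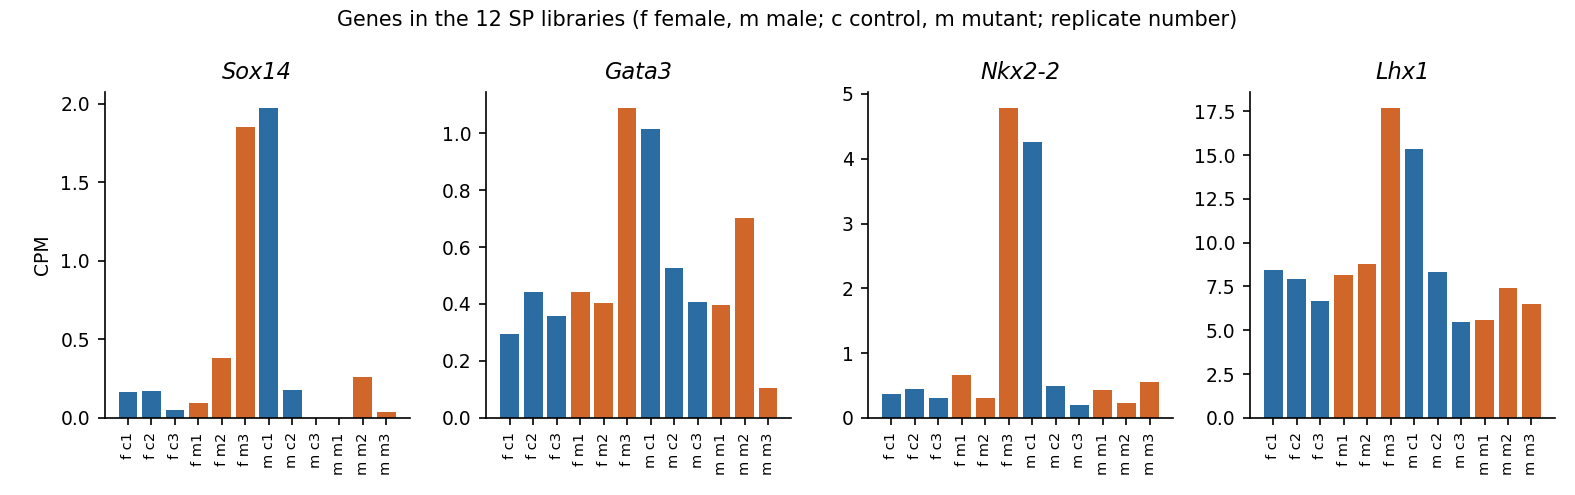
CPM of Sox14, Gata3, Nkx2-2 and Lhx1 in the 12 SP libraries, 1 bar each, controls blue and mutants orange. Female mutant 3 and male control 1 were the highest libraries in each panel, with Sox14 at 1.85 and 1.98 CPM.

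Male control 1 entered the control fit of *Sox14*, and female mutant 3 did not enter the mutant fit. DMH over SP gave a log2 fold change of 6.44 (SE 0.65, adjusted p = 0.000309 by edgeR) in controls and 8.10 (SE 0.29, adjusted p = 3.53e-07 by edgeR) in mutants. Without male control 1 the control value was 8.51, and with female mutant 3 included the mutant value was 6.78. The interaction of genotype and region was 1.55 (SE 1.20, adjusted p = 0.954 by edgeR).

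*Zfpm2*, which encodes FOG2 and is also transcribed in many cortical cells, differed less between the pieces than the 5 members above. It was at 49.9, 57.7 and 66.7 CPM (lowest, median, highest) in DMH controls and 52.0, 59.6 and 60.8 CPM in DMH mutants. SP controls had 29.9, 33.0 and 41.6 CPM and SP mutants 30.1, 32.6 and 43.3 CPM. All DMH libraries lay above all SP libraries. Its log2 fold change came to 0.76 (SE 0.0689, adjusted p = 1.62e-06 by edgeR) in controls and 0.71 (SE 0.0875, adjusted p = 0.000207 by edgeR) in mutants, past the p threshold and under the fold threshold. Every DMH library was above every SP library in 6 of the 7 members, and in 16.1% of the 14535 genes with a mean DMH level of at least 1 CPM.

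*Helt*, the Hes-like repressor of midbrain precursors, was the exception. It was at 0.995, 1.80 and 4.80 CPM in DMH controls, 1.50, 3.08 and 6.18 CPM in DMH mutants, 1.27, 2.03 and 3.10 CPM in SP controls and 1.78, 2.55 and 3.55 CPM in SP mutants. These were 28 to 176 counts in DMH and 45 to 121 counts in SP, above the floor in all 24 libraries, and the ranges overlapped. DMH over SP came to 0.15 on the log2 scale in controls (SE 0.18, adjusted p = 0.462 by edgeR, 95% interval -0.23 to 0.53) and 0.29 in mutants (SE 0.26, adjusted p = 0.384 by edgeR, 95% interval -0.31 to 0.90). Without the *Hox*-poor embryos the values were -0.0297 and -0.35.

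**Figure D3:**
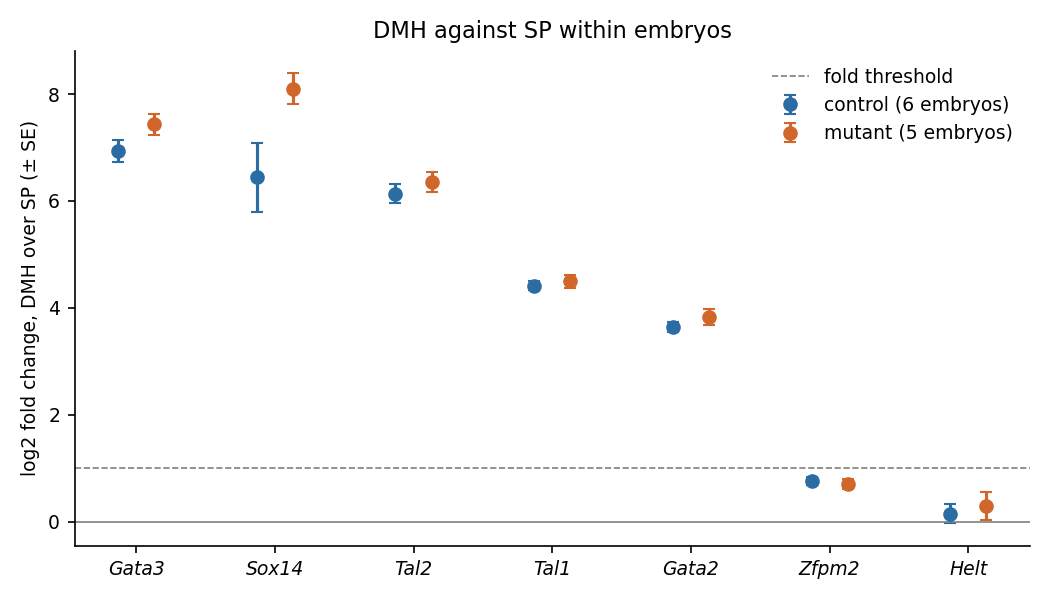
Log2 fold change of DMH over SP (± SE) for each member in controls (6 embryos) and mutants (5 embryos), with embryo as a block. Gata3, Sox14, Tal2, Tal1 and Gata2 lie between 3.64 and 8.10, Zfpm2 under the threshold of 1 (dashed), and Helt at 0.15 and 0.29.

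Counted per kb of annotated exons, which allows a comparison between genes, the DMH controls put *Sox14* (18.5 ± 6.22 CPM per kb), *Tal2* (17.1 ± 8.63), *Gata3* (16.3 ± 3.89) and *Tal1* (14.1 ± 2.75) together, with SDs that overlapped (SD, n = 6). *Zfpm2* (6.15 ± 0.632 CPM per kb) and *Gata2* (4.46 ± 0.870) stood lower, and *Helt* (1.21 ± 0.730) lowest. In SP controls the order of levels per kb was *Zfpm2* (3.59 ± 0.472), *Helt* (1.02 ± 0.355), *Tal1* (0.649 ± 0.105), *Gata2* (0.351 ± 0.0631), *Tal2* (0.221 ± 0.0508), *Sox14* (0.205 ± 0.370) and *Gata3* (0.128 ± 0.0656). The last 3 overlapped within their SDs, and without male control 1 *Sox14* was at 0.0543 ± 0.0393 and *Gata3* at 0.102 ± 0.0219 CPM per kb (SD, n = 5). Exon lengths are of all annotated transcripts together, so a gene with a rarely used long exon reads low on this scale.

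Partners of GATA and TAL factors were called in both directions between the pieces. Of 16 listed partners 13 passed the filter on low counts, and in controls 2 were called higher in DMH and 2 lower, against 5.37% of all genes called lower, with a median log2 fold change of -0.0474 against 4.41 over the members and -0.00298 over all genes. Higher were *Zfpm1*, which encodes FOG1 (1.32), and *Gata6* (1.13), a GATA gene of mesoderm and endoderm. Lower were the E protein genes *Tcf4* (-1.94) and *Tcf3* (-1.17), whose products dimerize with TAL proteins, at 1104 ± 118 CPM in SP controls and 290 ± 22.8 CPM in DMH controls for *Tcf4* (SD, n = 6). The bridging cofactors *Lmo1* (-0.11), *Lmo3* (-0.0474) and *Ldb2* (0.0212) did not pass the p threshold, and *Lmo2* (0.50), *Ldb1* (-0.45) and *Lmo4* (-0.28) passed it and stayed under the fold threshold. *Lmo2* was at 21.8 to 26.2 CPM in DMH and 11.9 to 18.8 CPM in SP, without overlap. In mutants the same 4 genes were called in the same directions, where 5.66% of all genes were called lower.

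Regional regulators known beside the members were mostly higher in DMH: of 18 that passed the filter, 12 were called higher and 1 lower in controls, and likewise in mutants. The largest folds were those of the isthmic and midbrain genes *En1* (10.70) and *En2* (9.88) and the dorsal gene *Pax7* (8.08), on the log2 scale in controls. *Foxn4* (2.82), which acts in the related V2 interneurons of the hindbrain and spinal cord, was called as well, at 1.80 ± 0.978 CPM in DMH controls (SD, n = 6). The proneural gene *Neurog2* was called lower (-2.11).

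Genes listed for the GABAergic phenotype were called in part. Of the 8 genes 3 were called higher in control DMH (*Gad1* 1.07, *Nxph1* 1.19 and *Penk* 2.48, log2 fold changes) and 1 in mutant DMH (*Penk*, 1.75). Of all genes 11.1% and 9.96% were called higher. *Gad2*, 1 of the glutamate decarboxylase genes, was at 120 ± 12.9 CPM in DMH controls and 116 ± 21.4 CPM in SP controls (SD, n = 6). On the glutamatergic side, 8 of 9 listed genes were called higher and 1 lower, the cortical transporter gene *Slc17a7* (-5.90), in controls and mutants. Among those higher were *Slc17a6* (1.23), the vesicular glutamate transporter of the midbrain and thalamus, and *Pou4f1* (6.58), a factor of dorsal midbrain neurons of the alternative fate.

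*Gata2* and *Tal1* are also transcribed in vessels and blood, whose markers differed little between the pieces. None of 9 erythroid and 10 endothelial genes tested was called in either genotype. The erythroid sum was 469 to 825 CPM in SP and 425 to 978 CPM in DMH, the endothelial sum 203 to 337 and 322 to 367 CPM, and *Gata1*, the defining GATA factor of erythroid cells, was at most 0.320 CPM in DMH. In the SP library of male mutant 3 the endothelial sum (203 CPM) and the meningeal sum (158 CPM) were the lowest of all 24 libraries. That library also had the lowest levels of *Gata2* (0.941 CPM), *Tal1* (1.92 CPM), *Tal2* (0.348 CPM) and *Gata3* (0.105 CPM) among the SP libraries. Of 10 meningeal and mesenchymal genes 3 were called higher in DMH in each genotype (median 0.60 in controls and 0.46 in mutants, log2 fold changes), and of 5 skeletal muscle genes tested 4 in controls and 3 in mutants (median 1.64 and 1.63), whose sum was 0.841 to 1.57 CPM in SP and 5.59 to 8.13 CPM in DMH without female mutant 3. The part of these cell types in the differences between the pieces was not tested.

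Loss of *Tfap2b* was then examined. With edgeR, 0 members were called between genotypes in either piece, in either sex or with both sexes together, at an adjusted p under 0.2 with a log2 fold change beyond 0.5 in either direction. Few genes were: 0.0181% of those tested in the SP of females, 0.00596% in their DMH, 0.00% in the SP of males, 0.0236% in their DMH, and over both sexes 0.00% in SP and 0.0523% in DMH. In the 6 fits 0, 0, 1, 3, 1 and 3 members had an unadjusted p under 0.05 by edgeR. Of all genes tested 428 of 16615, 1492 of 16773, 605 of 16562, 490 of 16962, 861 of 16973 and 2590 of 17223 did. DESeq2 called 1 member in 1 of the 6 fits, *Tal2* in male DMH (0.77, adjusted p = 0.0816), and 0 in the other fits. It called 0.0361%, 0.453%, 0.0423%, 0.0766%, 0.159% and 0.296% of all genes in these fits, in the order given. *Sox14* did not pass the filter on low counts in the SP fits, which therefore tested 6 members, and all 7 were tested in DMH. Leaving out 1 embryo changed the count of members called in 2 fits: *Tal2* (0.65) and *Sox14* (0.54) were called in female DMH without female control 1, the *Hox*-poor control, and *Tal2* (0.66) and *Helt* (0.80) in DMH of both sexes without male mutant 1. In these fits 1117 of 16848 and 531 of 17114 genes were called.

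In DMH the largest differences in the fits without female mutant 3 were those of *Tal2*, *Helt* and *Sox14*, all toward higher levels in mutants. With that embryo included, the mean of *Tal2* in female DMH was 72.8 CPM in mutants and 70.0 CPM in controls. The same means were 3.87 and 3.44 CPM for *Helt* and 48.6 and 46.9 CPM for *Sox14*. *Tal2* was at 93.5, 68.2 and 48.3 CPM in female controls 1 to 3, 89.9, 91.3 and 37.3 CPM in female mutants 1 to 3, 29.3, 35.0 and 29.7 CPM in male controls and 42.8, 77.2 and 44.2 CPM in male mutants. The female groups overlapped, and every male mutant was above every male control. Over both sexes mutants exceeded controls by 0.60 on the log2 scale (SE 0.21, unadjusted 95% interval 0.14 to 1.06, adjusted p = 0.327 by edgeR), with 0.38 (SE 0.28) in females and 0.77 (SE 0.24) in males. Without female control 3 the female value was 0.17, without female control 1 it was 0.65, and without male mutant 2, a *Hox*-poor library, the male value was 0.45.

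*Helt* was at 4.80, 3.69 and 1.82 CPM in the DMH of female controls, 3.93, 6.18 and 1.50 CPM in female mutants, 0.995, 1.58 and 1.78 CPM in male controls and 1.80, 3.71 and 2.44 CPM in male mutants. The groups met again in females, and in males the lowest mutant lay just above the highest control. For both sexes together the log2 fold change was 0.69 (SE 0.27, unadjusted 95% interval 0.0958 to 1.29, adjusted p = 0.327 by edgeR).

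*Sox14* was at 61.1, 43.2 and 36.3 CPM in the DMH of female controls, 55.4, 59.1 and 31.3 CPM in female mutants, 29.9, 33.9 and 24.6 CPM in male controls and 37.1, 53.0 and 34.0 CPM in male mutants. Here too the female groups overlapped, and the male ranges were next to each other without overlap. The difference over both sexes was 0.39 on the log2 scale (SE 0.16, unadjusted 95% interval 0.0460 to 0.74, adjusted p = 0.327 by edgeR).

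*Tal1* (0.23, SE 0.11), *Gata3* (0.21, SE 0.14) and *Gata2* (0.16, SE 0.11) differed by less, and *Zfpm2* by -0.0405 (SE 0.0716, 95% interval -0.20 to 0.11), with edgeR adjusted p of 0.335, 0.423, 0.440 and 0.777. Without male mutant 2 the values of *Tal1*, *Gata3* and *Gata2* were 0.14, 0.0983 and 0.0592. In male DMH every mutant was above every control for *Tal1*, *Tal2*, *Helt* and *Sox14*, which is 4 of the 7 members against 7.62% of the genes with a mean DMH level of at least 1 CPM. Female control 2, which had Y-linked transcripts, was above the lowest male mutant for all 4 (67.4, 68.2, 3.69 and 43.2 CPM), so that none of them would be free of overlap if it were counted as a male control. With 3 against 3 libraries a two-sided exact permutation test cannot reach 0.05. The median log2 fold change over both sexes was 0.23 for the members and -0.00254 for all genes, and of the partners, the regional regulators, the GABAergic and the glutamatergic genes 0 were called. Values were above 0 for 8 of 13 partners (median 0.0630), 15 of 18 regional regulators (0.28) and 7 of 9 glutamatergic genes (0.0875), against 49.4% of all genes. For the GABAergic phenotype 8 of 8 values were below 0 (median -0.21), with *Gad1* at -0.27 (SE 0.0846) and *Nxph1* at -0.39 (SE 0.11), both with an edgeR adjusted p of 0.327. *Nxph1* was also lower in every *Hox*-poor DMH library than in any other, and the part of the *Hox* level in these values was not tested.

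The same genes also differed between DMH libraries by their caudal *Hox* level. What set that level is not stated in the labels, and its part in the genotype differences was examined only by the fits given here. Of the mutants in the fit 3 of 5 were *Hox*-poor, against 1 of 6 controls, and 5 of the 7 members were higher in all 4 *Hox*-poor libraries than in the other 8, as were 12.2% of 14535 genes. *Tal2* was at 77.2 to 93.5 CPM in the *Hox*-poor libraries, whether control or mutant, and at 29.3 to 68.2 CPM in the rest. *Helt* was at 3.71 to 6.18 against 0.995 to 3.69 CPM. Female control 1, the only *Hox*-poor control, had the highest *Gata3*, *Tal2* and *Sox14* of all 12 DMH libraries.

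For *Sox14* the split was 53.0 to 61.1 against 24.6 to 43.2 CPM, for *Gata3* 83.6 to 90.8 against 47.0 to 74.1 CPM, and for *Tal1* 71.7 to 83.4 against 48.5 to 67.4 CPM. *Gata2*, at 28.0 to 31.3 against 18.2 to 30.9 CPM, and *Zfpm2*, at 55.0 to 64.1 against 49.9 to 66.7 CPM, overlapped. The ratio of the median level in *Hox*-poor libraries to that in the others was 2.44 for *Helt*, 2.26 for *Tal2*, 1.69 for *Sox14*, 1.50 for *Gata3*, 1.43 for *Tal1*, 1.30 for *Gata2* and 1.03 for *Zfpm2*, against a median of 1.01 over all genes. The members were thus graded, with *Helt* and *Tal2* at 1 end and *Zfpm2* at the other.

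**Figure D4:**
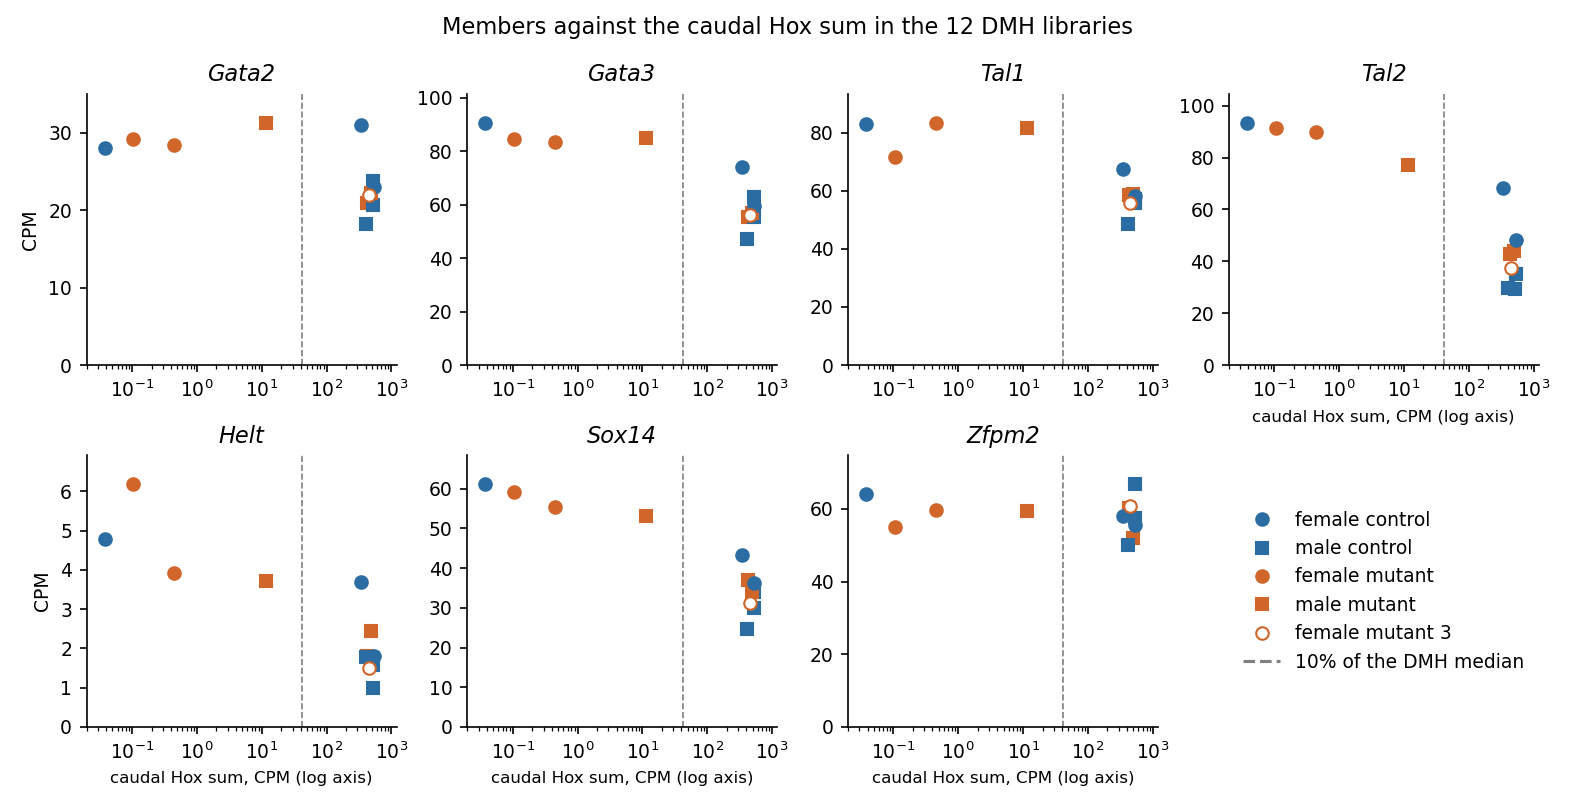
CPM of each member in the 12 DMH libraries against the summed CPM of 15 caudal Hox genes (log axis), the dashed line at 10% of the DMH median. The 4 Hox-poor libraries, 1 control and 3 mutants, lie above the other 8 in Gata3, Tal1, Tal2, Helt and Sox14, and among them in Gata2 and Zfpm2.

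Other lists divided by the *Hox* level as well. Of 18 regional regulators 13 were higher in all 4 *Hox*-poor libraries than in the other 8 and 1 was lower, against 12.2% and 11.1% of all genes. Of 8 GABAergic phenotype genes 0 were higher and 4 were lower (*Sst*, *Npy*, *Penk* and *Nxph1*). Of 12 partners 3 were higher and 2 lower, and of 8 glutamatergic genes 3 were higher and 1 lower. The meningeal and mesenchymal sum was 744 to 909 CPM in *Hox*-poor libraries and 937 to 3293 CPM in the others, without overlap, and its part in the split was not tested. The median in *Hox*-poor against other DMH libraries was 137 against 75.1 CPM for *Otx2*, the homeobox gene of forebrain and midbrain, and 64.9 against 40.4 CPM for *Pax7*, with no overlap. *Lhx1* (138 against 125 CPM), *Foxp2* (215 against 185 CPM) and *Nkx6-1* (12.2 against 19.8 CPM) overlapped. *Penk*, the enkephalin precursor gene, was lower at 8.02 against 27.7 CPM. *Gad1* was at 88.0 against 107 CPM and *Slc32a1*, the vesicular GABA transporter gene, at 59.4 against 58.6 CPM, both with overlap. The 4 and the 8 libraries were set apart by *Hox* levels after the values were known, and these are descriptions with no test.

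With the caudal *Hox* level as a covariate, the genotype difference over both sexes was 0.31 (SE 0.18) for *Tal2*, 0.32 (SE 0.25) for *Helt*, 0.15 (SE 0.12) for *Sox14* and -0.00291 (SE 0.11) for *Gata3*, on the log2 scale, all with an edgeR adjusted p of 1.00. In females alone the covariate turned the sign of *Tal2* (-0.0346), *Sox14* (-0.0777), *Tal1* (-0.0829) and *Gata3* (-0.10). Without the 4 *Hox*-poor embryos 5 controls and 2 mutants remained, and the values were 0.45 (SE 0.14), 0.46 (SE 0.34), 0.26 (SE 0.12) and 0.0132 (SE 0.12), again with an adjusted p of 1.00. When female mutant 3, whose piece was not *Hox*-poor, was kept as a mutant, they were 0.0799 (SE 0.24), 0.00221 (SE 0.36), 0.0440 (SE 0.14) and -0.0810 (SE 0.10). In all 3 settings the differences of *Tal2*, *Helt* and *Sox14* were smaller than with all pieces but that of female mutant 3. The last of these settings was chosen after the data were seen, and its fall toward 0 came with the library of female mutant 3, which had the muscle genes given above. The 12 embryos held 5 controls and 3 mutants that were not *Hox*-poor, female mutant 3 among them. In the fits without it, the mutants that were not *Hox*-poor were males. In females every mutant fitted was *Hox*-poor (0.450 and 0.105 CPM), and female control 1 was the only *Hox*-poor control. The female covariate values therefore rest on that control, and over both sexes genotype and *Hox* level were in part confounded.

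**Figure D5:**
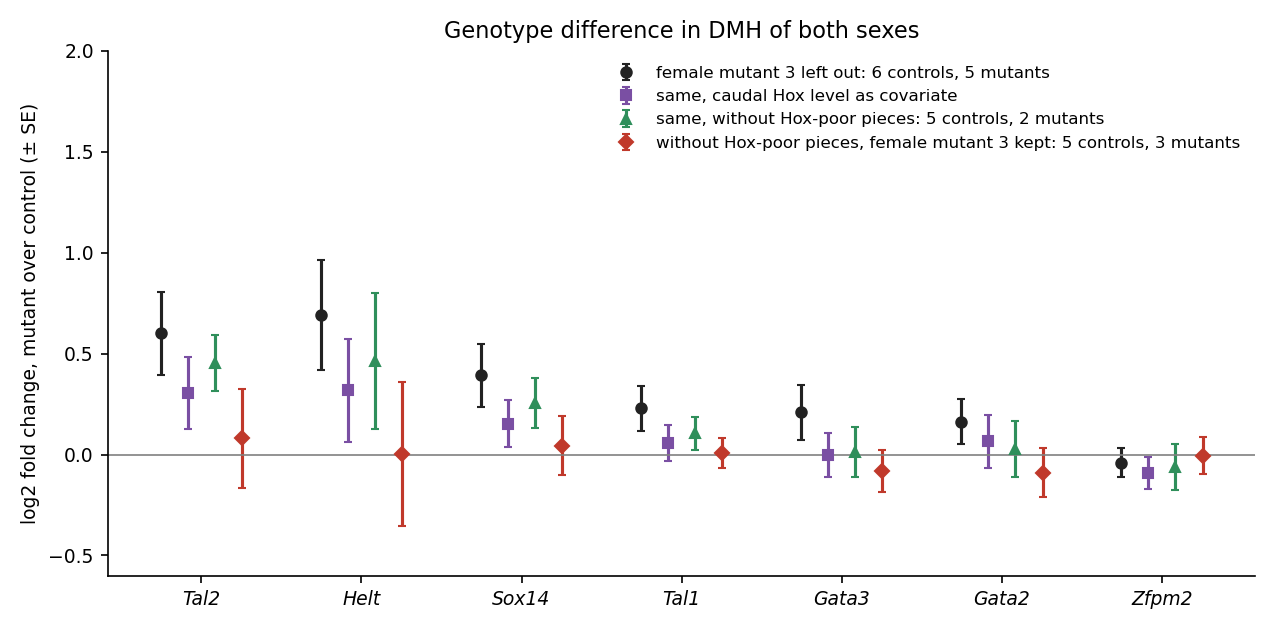
Log2 fold change of mutant over control DMH (± SE, both sexes, sex as covariate) for each member under 4 settings. Tal2 is at 0.60 with all pieces but that of female mutant 3, 0.31 with the Hox covariate and 0.45 without Hox-poor pieces. It is at 0.0799 when female mutant 3 is then added, a setting chosen after the data were seen. Helt is at 0.69, 0.32, 0.46 and 0.00221.

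In SP the largest difference was that of *Helt* in males. Male mutants had 1.78, 3.15 and 3.55 CPM and male controls 1.37, 1.79 and 1.27 CPM, so that 1 mutant lay within the controls. Mutants exceeded controls by 0.95 on the log2 scale (SE 0.31, unadjusted p = 0.0149, adjusted p = 0.967 by edgeR), and the value in females was -0.0562 (SE 0.18, adjusted p = 1.00 by edgeR), from 2.56, 3.10 and 2.27 CPM in controls and 2.78 and 2.32 CPM in mutants 1 and 2. The interaction of genotype and sex for *Helt* in SP was 1.02 (SE 0.38) with an edgeR adjusted p of 1.00. That of *Sox14* was -3.60 (SE 2.10, adjusted p = 1.00 by edgeR), the lowest of 17348 genes, from 0 to 16 counts a library but for male control 1 with 72. Over both sexes the SP differences of the 6 members tested lay between -0.26 (*Gata3*, SE 0.39) and 0.51 (*Helt*, SE 0.23), with adjusted p of 0.901 or more.

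For the interactions, 0 members were called by edgeR or DESeq2, and the share of genes called was 0.00546% for genotype and region and 0.00% for genotype and sex in either piece. Besides *Sox14*, the interaction of genotype and region lay between -0.0313 (*Zfpm2*, SE 0.11) and 0.51 (*Gata3*, SE 0.39) on the log2 scale. In DMH the interaction of genotype and sex was largest for *Tal2* (0.39, SE 0.41, adjusted p = 1.00 by edgeR).

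By sex, DMH levels of control females were above those of control males for several members, in the order of means over the 8 conditions. *Tal2* was at 70.0 ± 22.6 CPM in female and 31.3 ± 3.19 CPM in male DMH controls, and *Sox14* at 46.9 ± 12.8 and 29.5 ± 4.66 CPM (SD, n = 3 each), with no overlap between these 2 groups in either gene. *Tal1* and *Helt* did not overlap either, which makes 4 of the 7 members against 2764 of the 14535 genes (19%) with a mean DMH level of at least 1 CPM. The 3 female controls included the *Hox*-poor piece and the embryo with Y-linked transcripts, and sex was not tested on its own. Among the 4 DMH conditions the means of *Gata2* ran from 20.9 ± 2.83 CPM in male controls to 27.3 ± 3.99 CPM in female controls and those of *Zfpm2* from 57.3 ± 4.58 CPM in male mutants to 59.3 ± 4.35 CPM in female controls, neighbours overlapping throughout.

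Within a library the ratio of 2 related genes does not depend on its depth. The counts of *Gata3* were 2.40 to 3.24 times those of *Gata2* in the 6 DMH controls and 2.56 to 2.94 times in the 6 mutants. The counts of *Tal2* were 0.525 to 1.13 times those of *Tal1* in controls and 0.667 to 1.27 times in mutants. Both ratios overlapped between genotypes. In *Hox*-poor libraries *Gata3* was at 2.71 to 3.24 times *Gata2* against 2.40 to 2.69 times in the other 8, without overlap, and *Tal2* at 0.945 to 1.27 times *Tal1* against 0.525 to 1.01 times, with overlap.

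Across the 12 DMH libraries the members other than *Zfpm2* followed each other. The Pearson r of log2(CPM + 0.5) was 0.97 for *Tal2* and *Sox14*, 0.97 for *Gata3* and *Sox14*, 0.96 for *Gata3* and *Tal1* and 0.94 for *Gata2* and *Gata3*, and at least 0.82 for every pair without *Zfpm2*. *Zfpm2* had an r between -0.0855 and 0.37 with the others. The 12 points fall into the *Hox*-poor libraries and the rest, so these values describe the libraries and carry no p.

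The 3 genes most like each member over these libraries were taken from 14535 with a mean of at least 1 CPM. *Pax7* (r = 0.99), *Sox14* (0.97) and *Cox19* (0.97) were nearest to *Gata3*, *Dab1* (0.98), *Irx5* (0.98) and *En1* (0.98) to *Tal1*, and *Irx3* (0.99), *Shox2* (0.99) and *Uncx* (0.98) to *Sox14*. *Irx3*, *Shox2* and *Uncx* are homeobox genes transcribed in the thalamus or midbrain. *Nxph4* (0.97), *Jag1* (0.96) and *C1ql4* (0.95) were nearest to *Gata2*, and *Tgfbr1* (0.99), *Nhlh1* (0.99) and *Sdcbp* (0.98) to *Tal2*. *Rxrb* (0.99), *Mta1* (0.99) and *Bcl2l1* (0.99) were nearest to *Helt*, and *Ghitm* (0.89), *Alg10b* (0.88) and *Npl* (0.86) to *Zfpm2*. Without female mutant 3 the r of each gene named here lay between 0.87 and 0.99.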

How the data were processed

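The authors deposited, for each of 24 libraries, 1 table of raw counts per gene (54446 genes) with an unstranded and 2 stranded columns, without normalization. Per the submitters' processing notes, reads were trimmed with cutadapt 2.4 and aligned to mm10 (GRCm38.p6) with STAR 2.6.1d, which leaves out fragments that map to several places. Lines that name no gene held 17.3 to 25.9% of the fragments of a library and were not used. The strand that dUTP libraries read was taken, 1 count column was used by no fit, and 54409 identifiers matched a GENCODE vM21 symbol.

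Tests used the robust quasi-likelihood fit of edgeR 4.0.16 under R 4.3.3, on all genes that filterByExpr kept and with TMM, each comparison on its own samples without female mutant 3. That choice and the genotype thresholds follow the study. Sex was a covariate where both sexes entered, and embryo a block between SP and DMH, since each embryo gave both pieces. The SE is the absolute log2 fold change over the square root of F, and 95% intervals use it with the t quantile at each gene's total degrees of freedom. P-values measure the spread between embryos. The labels state no link between same-numbered controls and mutants, and whether they came from one litter is not given. Their deviations correlated between -0.19 and 0.58 over 12 pairs. SP and DMH of an embryo correlated between 0.08 and 0.55. The fits of genotype in female DMH and in DMH of both sexes, and of DMH against SP in controls, were also run on simulated counts. The outcome of these runs is not given here. DESeq2 1.42.0, RLE size factors, no filter, unstranded counts, all samples, the replicate block, caudal *Hox* terms and each replicate left out were alternatives. Plots and summaries came from Python 3.11.15 (matplotlib 3.10.9). The members, lists, motifs and rules for named genes (all members, list genes, the 3 genes most like each member) were chosen with earlier results of these data known. Some genes of the regional list are not reported here and were left out of its counts.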

Additional observations from a re-analysis of the deposited data

Results flagged for a closer look

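Each member's 6 libraries of a region and genotype were checked for a library far from the rest, in 28 groups, and 4 groups held one. For 6 independent normal values the rule flags about 1 group in 20. These groups mix females and males and share libraries between members, so that rate does not apply to them. In SP controls male control 1 was far above the other 5 for *Sox14* (1.98 CPM) and *Gata3* (1.02 CPM), and in SP mutants female mutant 3 was far above the others for *Sox14* (1.85 CPM). *Nkx2-2* and *Lhx1* were also highest in these 2 libraries. Female control 2 was far above the other SP controls for *Tal1* (3.75 CPM), a level within the range of the SP mutants (1.92 to 4.06 CPM).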

How the results depend on the processing

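Between SP and DMH 5 members were called in each genotype under every alternative run, replicates left out included, and 56 of 56 mean levels moved by less than 1 SD without TMM or with unstranded counts. Between genotypes the count of members called was 0 under the alternatives with 5 exceptions. In female DMH it was 1 (*Helt*) without a filter on low counts, where 535 of 29519 genes were called, and 0 to 2 with a replicate left out, the 2 being *Tal2* (0.65) and *Sox14* (0.54) without female control 1, the *Hox*-poor control. In male DMH it was 1 with DESeq2 (*Tal2*), and in DMH of both sexes 0 to 2 with a replicate left out, *Tal2* (0.66) and *Helt* (0.80) without male mutant 1. For genotype and sex in DMH it was 1 (*Tal2*) without *Hox*-poor embryos and with female mutant 3 kept, an alternative added after the data were seen. In that fit 984 genes were called, against 0 of all genes in the fit as reported, and 1 female mutant remained. The replicate number as a block changed no call of a member, and neither did leaving out the embryo block between SP and DMH, where the count was 5 without the block. The cause of these changes was not tested.

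Of 724 values of single members under alternatives, 51 changed sign, most of them near 0. In DMH of both sexes these were *Gata2* (-0.0894) and *Gata3* (-0.0810) without *Hox*-poor embryos and with female mutant 3, and *Gata3* (-0.00291) with the *Hox* covariate. In female DMH the covariate turned *Gata3* (-0.10), *Sox14* (-0.0777), *Tal1* (-0.0829) and *Tal2* (-0.0346), and *Gata2* was at -0.0383 with all samples and -0.0179 with the replicate block. *Gata2* was at -0.0441 in female SP with all samples, and in SP of both sexes at -0.00497 with DESeq2, -0.0250 with the replicate block, -0.0550 with all samples, -0.0146 without a filter and -0.00849 with RLE size factors. *Gata3* in SP of both sexes was at 0.10 with all samples, and *Zfpm2* at 0.000149 with unstranded counts and 0.0261 with all samples. *Helt* between DMH and SP was at -0.0297 in controls and -0.35 in mutants without *Hox*-poor embryos, and at -0.33 in mutants with female mutant 3 also kept. With each replicate left out in turn, *Gata2* ranged from -0.0770 to 0.13 in SP of both sexes, -0.0239 to 0.18 in female DMH and -0.32 to 0.18 in male SP. *Gata3* ranged from -0.50 to 0.0354 in SP of both sexes, and *Helt* from -0.0297 to 0.25 (DMH against SP, controls), -0.00301 to 0.51 (mutants) and -0.19 to 0.0803 (female SP). *Tal1* ranged from -0.00170 to 0.27 in SP of both sexes, -0.0242 to 0.35 in female SP and -0.24 to 0.36 in male SP, and *Tal2* from -0.17 to 0.86 in male SP. *Zfpm2* ranged from -0.0895 to 0.0220 in DMH of both sexes, -0.0960 to 0.0595 in SP of both sexes, -0.0882 to 0.0241 in female DMH, -0.14 to 0.0780 in male DMH and -0.24 to 0.0624 in male SP.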
